A study of Mus musculus with 3 samples.

Results

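The FoxO transcription factors of the mouse are 4 genes, Foxo1, Foxo3, Foxo4 and Foxo6. They were found by symbol in the gene rows shared by 3 single-cell RNA libraries of the left ventricle, and all 4 of 4 were present among 30360 genes. Each library pooled 4 samples of mice whose genotype is labelled C56Bl6, and each stood for 1 group. The first group, HFpEF-FoxO1-sh, had a High-Fat diet with L-NAME, an inhibitor of nitric oxide synthase, for 6 weeks, and an adeno-associated virus (AAV) carrying a short hairpin against FoxO1 for 4 weeks. The second, HFpEF-scr, had that diet for 6 weeks and an AAV carrying a scrambled hairpin for 4 weeks. The third, Control, had a control diet for 10 weeks, with no vector named in its labels. HFpEF is heart failure with preserved ejection fraction, which this diet is used to model. The study asked what the diet and the FoxO1 hairpin change in cardiac cells. Diet and vector differ together between HFpEF-scr and Control, and both comparisons below share the HFpEF-scr library. The labels do not name the cells in which the hairpin is active or its promoter, and the cell suspension was strained to remove cardiomyocytes, so these values describe the other cells of the ventricle.

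FoxO factors are forkhead proteins that bind DNA and activate genes for cell cycle arrest, cell death, autophagy, stress defence and fasting metabolism. Insulin and related growth factors, acting through the PI3-kinase and Akt cascade, cause FoxO proteins to be phosphorylated, bound by 14-3-3 proteins and held outside the nucleus, so RNA levels alone do not report FoxO activity. Foxo1 is needed for blood vessel development and restrains endothelial growth. It also maintains B and T lymphocytes, while in heart and skeletal muscle FoxO factors drive the ubiquitin ligase genes Fbxo32 and Trim63.

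In the GENCODE annotation of GRCm38, Foxo1 lies at chr3:52268336-52353221 on the plus strand and has 1 annotated transcript with 3 exons. Foxo3 lies at chr10:42181841-42276755 on the minus strand, Foxo4 at chrX:101254528-101260873 on the plus strand and Foxo6 at chr4:120267079-120287349 on the minus strand. Foxo1 and Foxo3 share a longest run of 38 bases in their longest coding transcripts. Their 8 shared stretches of 31 bases are overlapping windows of that run. Within the last 1000 bases, where a 3' kit places its reads, their longest shared run is 18 bases. Every other pair shared no stretch of 31 bases, so near-identical sequence among the members is short.

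FoxO proteins recognise the core element GTAAACA, and the related insulin response element holds CAAAACAA. These elements have the letters AAACA in common. Both were searched on both strands of the 250 bases before each gene's start in the RefSeq promoter table of GRCm38.p6. GTAAACA was present in 3.17% of all 32851 promoters and in 7 of the 84 promoters (8.33%) that matched 70 genes of a list of known FoxO targets. CAAAACAA was present in 2.21% of all promoters and in 6 of those 84 (7.14%). The promoters of Foxo1 and Foxo3 held neither element, and Foxo4 and Foxo6 were not in the table. A match is a description of letters only. The stretches below are shown because their genes are read out further on. Capitals mark the element, which reads TGTTTAC or TTGTTTTG where it lies on the strand opposite to the gene.
Txnip, chr3:96557806-96557872, plus strand: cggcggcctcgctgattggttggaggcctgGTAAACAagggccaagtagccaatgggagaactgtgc
Btg1, chr10:96616767-96616833, plus strand: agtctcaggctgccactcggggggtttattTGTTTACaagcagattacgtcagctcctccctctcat
Bcl2l11, chr2:128125788-128125847, plus strand: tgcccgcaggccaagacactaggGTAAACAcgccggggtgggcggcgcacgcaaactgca
Mxi1, chr19:53329445-53329500, plus strand: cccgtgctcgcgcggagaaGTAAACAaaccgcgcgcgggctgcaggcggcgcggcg
Irs2, chr8:11008930-11008997, minus strand: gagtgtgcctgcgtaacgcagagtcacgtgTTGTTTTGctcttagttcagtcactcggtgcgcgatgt

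The libraries held 27453 barcodes in HFpEF-FoxO1-sh, 36179 in HFpEF-scr and 33022 in Control. Unique molecular identifiers (UMIs), each standing for 1 captured transcript end, numbered 144561934 in HFpEF-FoxO1-sh, 154385813 in HFpEF-scr and 146230530 in Control. After filters on UMIs, genes, mitochondrial share and doublets, 16854 cells remained in HFpEF-FoxO1-sh, 14567 in HFpEF-scr and 12757 in Control. HFpEF-FoxO1-sh stood apart in its mitochondrial share, with a median over all barcodes of 11.7%, against 22.1% in HFpEF-scr and 24.6% in Control. The median depth of a kept cell was 6607 UMIs in HFpEF-FoxO1-sh, 6520 in HFpEF-scr and 6889 in Control. Between 37 and 61 kept barcodes were shared by any pair of libraries. Clustering gave 45 clusters, of which 40 were named from marker genes, and 11 cell classes with at least 50 cells in each library were compared. The classes named cardiomyocyte and erythroid also had that many cells, but were left out because their clusters held much RNA of other classes, a choice made after their leading genes were seen. Each group being a single library, no difference below has a replicate or a test. Levels are given as CPM, a gene's UMIs scaled to 1000000 UMIs in total. Every 95% interval below covers counting error only and says nothing of differences between animals. Because each UMI counts a transcript end, levels of different genes were compared without scaling to length.

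Foxo1, the gene named by the hairpin, was not lower over all kept cells of the library labelled HFpEF-FoxO1-sh. Its level was 59.7 CPM (95% interval 58.3 to 61.1; 7067 UMIs) in HFpEF-FoxO1-sh, 56.2 CPM (54.7 to 57.6; 5809 UMIs) in HFpEF-scr and 61.1 CPM (59.5 to 62.7; 5875 UMIs) in Control. HFpEF-FoxO1-sh was thus the middle of the 3 libraries. Dividing the CPM in HFpEF-FoxO1-sh by that in HFpEF-scr gave 1.06 (1.03 to 1.10), and dividing HFpEF-scr by Control gave 0.919 (0.886 to 0.953). Over all barcodes, with no filter on cells, Foxo1 had 55.1 CPM in HFpEF-FoxO1-sh, 47.8 in HFpEF-scr and 51.3 in Control. Mitochondrial UMIs are in that denominator. Without mitochondrial, haemoglobin and ribosomal protein genes in it, the same barcodes gave 80.4 CPM in HFpEF-FoxO1-sh, 79.8 in HFpEF-scr and 84.4 in Control. A cluster led by the cardiomyocyte genes Tnni3 and Myl2, with Timp1 and Ccl2 also among its leading genes, held 169 cells in HFpEF-FoxO1-sh, 82 in HFpEF-scr and 51 in Control and was not compared. Foxo1 had 25.3 CPM (24 UMIs) in that cluster in HFpEF-FoxO1-sh, 14.2 CPM (9 UMIs) in HFpEF-scr and 8.90 CPM (3 UMIs) in Control, with a ratio of 1.78 (0.800 to 4.36) between HFpEF-FoxO1-sh and HFpEF-scr. Counts this low leave both a lower and a higher level possible in those cells. Since the targeted gene does not show the label over these cells, HFpEF-FoxO1-sh names below the library so labelled, not a level of Foxo1.

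None of the other 3 members differed between libraries beyond counting error. Foxo3 had 35 CPM in HFpEF-FoxO1-sh, 33.7 in HFpEF-scr and 34.4 in Control. Foxo4, a smaller member also under Akt control, had 10.3 CPM in HFpEF-FoxO1-sh, 10.3 in HFpEF-scr and 9.53 in Control. Foxo6, known mainly from brain, had 1.06 CPM (126 UMIs) in HFpEF-FoxO1-sh, 0.919 CPM (95 UMIs) in HFpEF-scr and 1.15 CPM (111 UMIs) in Control. In HFpEF-FoxO1-sh over HFpEF-scr the ratios were 1.04 (0.994 to 1.09) for Foxo3, 0.999 (0.920 to 1.09) for Foxo4 and 1.16 (0.881 to 1.53) for Foxo6. In HFpEF-scr over Control they were 0.979 (0.933 to 1.03) for Foxo3, 1.08 (0.985 to 1.18) for Foxo4 and 0.796 (0.599 to 1.06) for Foxo6. So 1 of 4 members had an interval that left out 1 in each comparison. At this depth the same held for 46.7% of 16969 genes in HFpEF-FoxO1-sh over HFpEF-scr and for 45.4% of 16827 genes in HFpEF-scr over Control, so an interval of this kind was common among all genes.

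Foxo1 levels differed more between cell classes than between libraries. Lymphatic endothelial cells held the most, with 139 CPM in HFpEF-FoxO1-sh, 141 in HFpEF-scr and 137 in Control, and their range did not meet that of any other class. Endocardial cells, the inner lining of the ventricle, followed with 112 CPM in HFpEF-FoxO1-sh, 127 in HFpEF-scr and 99.7 in Control. Schwann cells had 90.5 CPM in HFpEF-FoxO1-sh, 91.1 in HFpEF-scr and 121 in Control. Neighbours from endocardial cells down to fibroblasts overlapped in range. B cells had 117 CPM in HFpEF-FoxO1-sh, 76.8 in HFpEF-scr and 95 in Control. T cells had 76.7 CPM in HFpEF-FoxO1-sh, 82.3 in HFpEF-scr and 75.5 in Control. Blood vessel endothelium was close to the T cells, with 63.6 CPM in HFpEF-FoxO1-sh, 80.6 in HFpEF-scr and 66.6 in Control.

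Fibroblasts, the most abundant class with 10170 cells in HFpEF-FoxO1-sh, 8759 in HFpEF-scr and 8154 in Control, had 65.0 CPM of Foxo1 in HFpEF-FoxO1-sh, 60.4 in HFpEF-scr and 65.5 in Control. Below them, smooth muscle cells had 45.9 CPM in HFpEF-FoxO1-sh, 40.3 in HFpEF-scr and 41.0 in Control, with no overlap on either side of the order. Monocytes had 24.8 CPM in HFpEF-FoxO1-sh, 19.6 in HFpEF-scr and 31.2 in Control. Macrophages were lowest of the 11 classes, with 14.2 CPM in HFpEF-FoxO1-sh, 12.7 in HFpEF-scr and 13.5 in Control. All 3 macrophage values lay below the lowest dendritic cell value, 16.9 CPM in HFpEF-scr. Over the 3 libraries the mean Foxo1 level was 139 CPM in lymphatic endothelial cells and 13.5 CPM in macrophages.

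**Figure D1:**
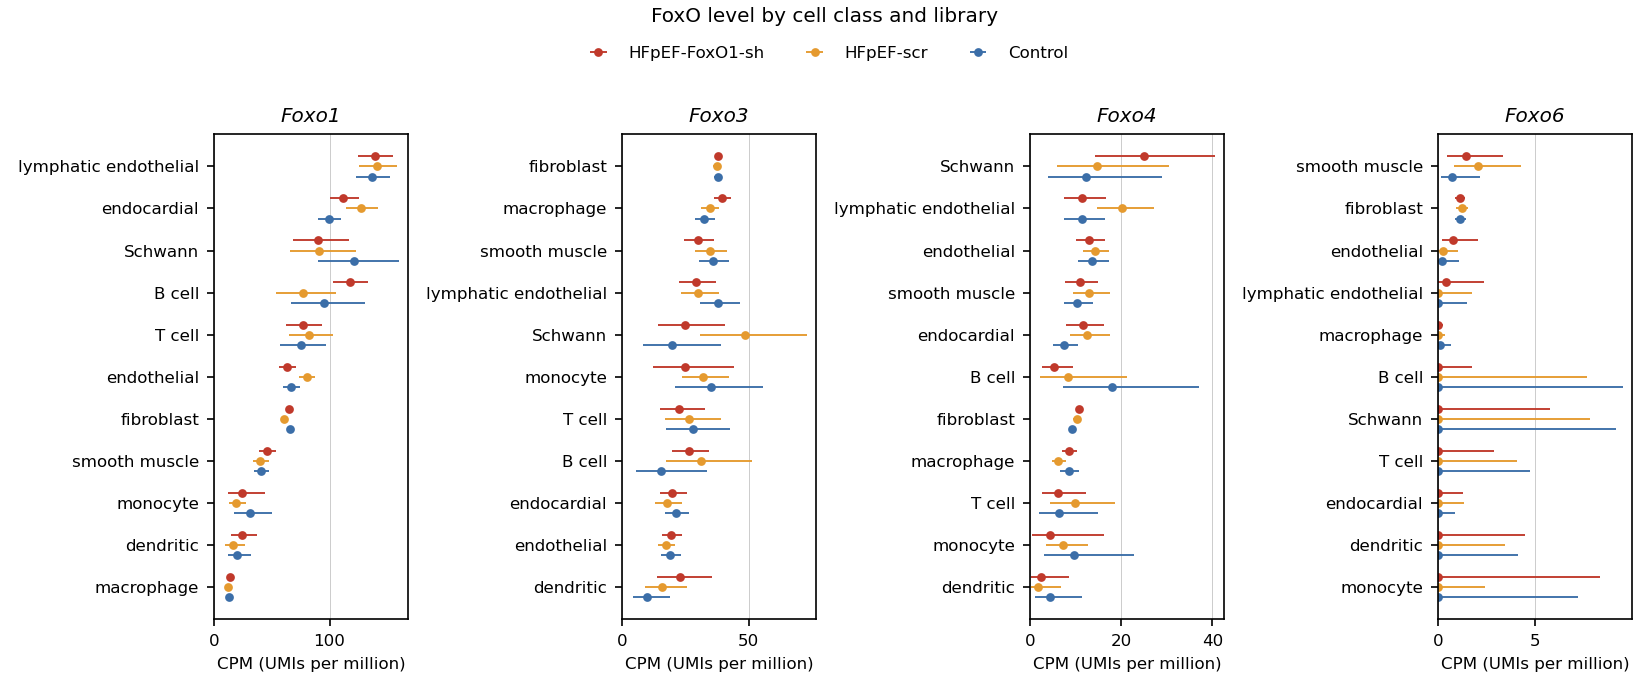
Level of each FoxO gene (CPM of summed UMIs) in 11 cell classes, 1 panel per gene, with 1 point per library and bars for exact Poisson 95% intervals that cover counting error only. Foxo1 spans from about 139 CPM in lymphatic endothelial cells to 13.5 CPM in macrophages, while Foxo3 stays between 10.1 and 48.7 CPM.

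Foxo3 was more even. Fibroblasts had 38.1 CPM in HFpEF-FoxO1-sh, 37.7 in HFpEF-scr and 37.7 in Control. Macrophages had 39.6 CPM in HFpEF-FoxO1-sh, 34.7 in HFpEF-scr and 32.5 in Control, although they were lowest for Foxo1. Endothelial cells had 19.4 CPM in HFpEF-FoxO1-sh, 17.4 in HFpEF-scr and 19.1 in Control, near the low end of the order. Every pair of neighbours in the Foxo3 order overlapped in range, so no step between adjacent classes stood clear of the spread over libraries. Foxo4 levels were low everywhere. Its order ran from Schwann cells, with 25 CPM in HFpEF-FoxO1-sh, 14.8 in HFpEF-scr and 12.4 in Control, to dendritic cells, with 2.41 CPM in HFpEF-FoxO1-sh, 1.88 in HFpEF-scr and 4.48 in Control. Blood vessel endothelium was the steadiest of the higher classes for Foxo4, with 13.0 CPM in HFpEF-FoxO1-sh, 14.3 in HFpEF-scr and 13.7 in Control.

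The balance of members differed by class. Over all kept cells, Foxo1 made up 56.5% of all FoxO UMIs on the mean of the 3 libraries, Foxo3 32.9%, Foxo4 9.60% and Foxo6 1.00%. Foxo1 took 78.8% of FoxO UMIs in endocardial cells (77.5 to 80.7% over the libraries) and 74.8% in lymphatic endothelial cells. In macrophages it took 23.7% (22.8 to 24.7%), and Foxo3 was the main member there with 62.5% (59.4 to 64.7%). Monocytes also had more Foxo3 on the mean, 48.8% against 40.1% for Foxo1, though each had 11 UMIs in HFpEF-FoxO1-sh. Dendritic cells had 40.4% Foxo3 and 51.8% Foxo1. The endocardial and macrophage ranges lay far apart in all 3 libraries. Among 27 forkhead genes measured, Foxo1 ranked 4 over all kept cells by mean CPM, after Foxp1, Foxn3 and Foxp2, and Foxo3 ranked 6.

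**Figure D2:**
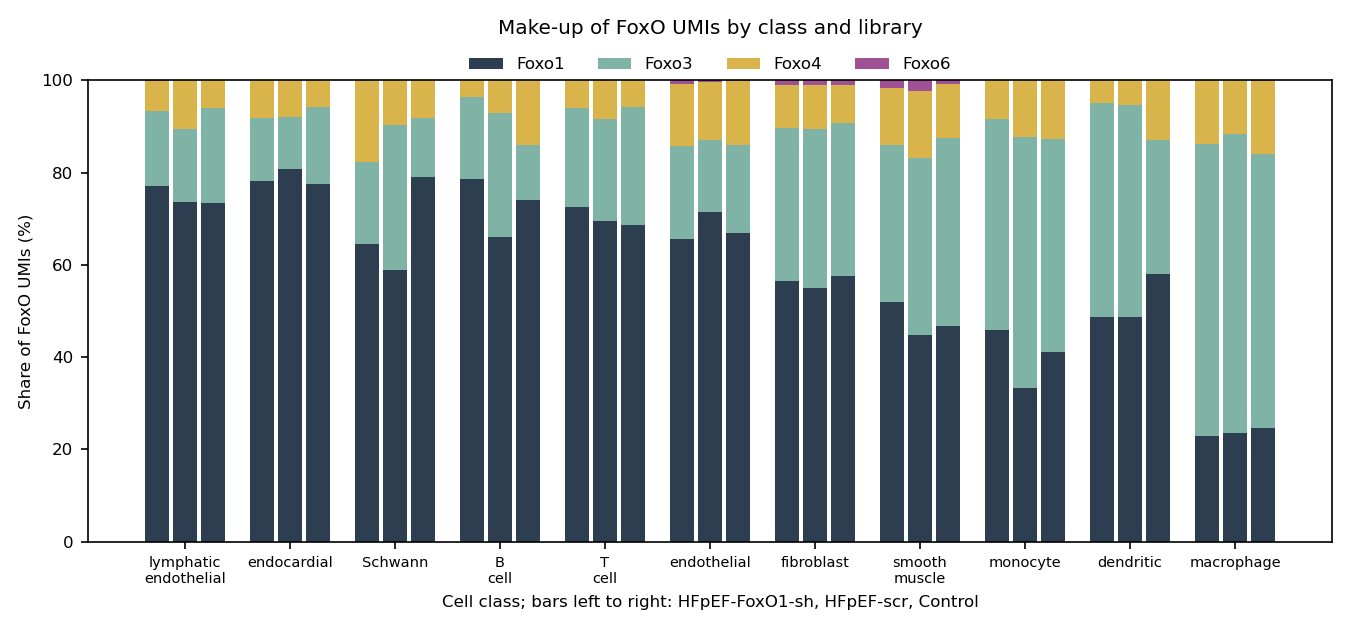
Share of all FoxO UMIs taken by each member (percent) in 11 cell classes and each library. Foxo1 takes 77.5 to 80.7% in endocardial cells and 22.8 to 24.7% in macrophages, where Foxo3 takes 59.4 to 64.7%.

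Neutrophils also held more Foxo3 than Foxo1 UMIs in each library, though too few passed the mitochondrial limit of 20% for the class to be compared. At a limit of 50%, neutrophils numbered 136 in HFpEF-FoxO1-sh, 295 in HFpEF-scr and 144 in Control. Foxo3 there reached 68.2 CPM (43.2 to 102) in HFpEF-FoxO1-sh, 52.4 (37.7 to 70.8) in HFpEF-scr and 59.6 (37.3 to 90.2) in Control. Foxo1 was counted as 2 UMIs in HFpEF-FoxO1-sh, 1 UMI in HFpEF-scr and 3 UMIs in Control, at most 8.12 CPM. The Foxo3 levels were above those of fibroblasts in each library, though the intervals in HFpEF-scr and Control reached down to about the fibroblast level. Foxo1 depended on how the class was formed. The neutrophils clustered at the limit of 20%, 107 cells in HFpEF-FoxO1-sh, 103 in HFpEF-scr and 40 in Control, held 3 Foxo1 UMIs in HFpEF-FoxO1-sh, 9 in HFpEF-scr and 5 in Control. Their Foxo3 UMIs numbered 20 in HFpEF-FoxO1-sh, 24 in HFpEF-scr and 8 in Control.

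Foxo6 had a far higher level (CPM) in mesothelial cells, the outer lining of the heart, than in fibroblasts. This class held only 91 cells in HFpEF-FoxO1-sh, 45 in HFpEF-scr and 108 in Control, and so fell outside the 11 compared. Foxo6 had 29.9 CPM (20.3 to 42.4; 31 UMIs) there in HFpEF-FoxO1-sh, 22.2 CPM (11.1 to 39.7; 11 UMIs) in HFpEF-scr and 24.2 CPM (17.2 to 33.0; 39 UMIs) in Control. Fibroblasts had 1.14 CPM (83 UMIs) in HFpEF-FoxO1-sh, 1.22 CPM (72 UMIs) in HFpEF-scr and 1.14 CPM (66 UMIs) in Control. The mesothelial intervals lay above the fibroblast levels in all 3 libraries. Mesothelial cells gave 24.6% of all Foxo6 UMIs in HFpEF-FoxO1-sh, 11.6% in HFpEF-scr and 35.1% in Control. Fibroblasts, far more numerous, gave most of them, 65.9% in HFpEF-FoxO1-sh, 75.8% in HFpEF-scr and 59.5% in Control. Of the mesothelial cells, 25.3% in HFpEF-FoxO1-sh, 15.6% in HFpEF-scr and 24.1% in Control held a Foxo6 UMI. No endocardial cell did, among 352 in HFpEF-FoxO1-sh, 421 in HFpEF-scr and 570 in Control. Taking 3 cells as the most that a count of 0 allows, the share of endocardial cells with a Foxo6 UMI at this depth was limited to 0.852% in HFpEF-FoxO1-sh, 0.713% in HFpEF-scr and 0.526% in Control, which does not limit the share of cells that express the gene. Likewise no B, T, Schwann, dendritic or monocyte cell held a Foxo6 UMI in any library, and the limit taken from 3 cells ran from 0.426% in B cells of HFpEF-FoxO1-sh to 4.55% in Schwann cells of Control. The mesothelial cells were deep, with medians of 9291 UMIs in HFpEF-FoxO1-sh, 10659 in HFpEF-scr and 12488 in Control. After thinning to 1000 UMIs, 2.20% of them in HFpEF-FoxO1-sh, 2.22% in HFpEF-scr and 3.70% in Control held a Foxo6 UMI. The thinned share of fibroblasts with a Foxo6 UMI was 0.0984% in HFpEF-FoxO1-sh, 0.114% in HFpEF-scr and 0.160% in Control.

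A Foxo1 UMI was found in 30.1% of all kept cells in HFpEF-FoxO1-sh, 28.8% in HFpEF-scr and 32.8% in Control. Such shares depend on depth. In fibroblasts 34.4% of cells in HFpEF-FoxO1-sh, 30.8% in HFpEF-scr and 34.6% in Control had a Foxo1 UMI, and the median depth was 6832 UMIs in HFpEF-FoxO1-sh, 6435 in HFpEF-scr and 6775 in Control. For macrophages the shares were 8.55% in HFpEF-FoxO1-sh, 7.48% in HFpEF-scr and 8.85% in Control, and the median depth was 6322 UMIs in HFpEF-FoxO1-sh, 5980 in HFpEF-scr and 6722 in Control. The clusters rich in haemoglobin RNA, meant as the class that should lack FoxO UMIs, were led in part by endothelial and macrophage genes. They gave 18.6% in HFpEF-FoxO1-sh, 24.6% in HFpEF-scr and 18.3% in Control and so are no clean background. Their median depth was 8010.5 UMIs in HFpEF-FoxO1-sh, 7590 in HFpEF-scr and 7958 in Control. In macrophages, the class with the lowest Foxo1 level, free RNA can have given no more than the share found there. Thinned to 1000 UMIs, the fibroblast shares were 6.38% in HFpEF-FoxO1-sh, 5.31% in HFpEF-scr and 6.70% in Control. The thinned macrophage shares were 1.47% in HFpEF-FoxO1-sh, 0.761% in HFpEF-scr and 1.75% in Control. Fibroblasts thus held Foxo1 UMIs in a larger share of cells than macrophages at equal depth. At least 1 FoxO UMI of any member was present in 46.9% of all kept cells in HFpEF-FoxO1-sh, 46.1% in HFpEF-scr and 50.03% in Control. Foxo1 and Foxo3 were together in 29 thinned fibroblasts of HFpEF-FoxO1-sh, 20 of HFpEF-scr and 17 of Control. The product of their separate shares gives 25.2 cells in HFpEF-FoxO1-sh, 16.2 in HFpEF-scr and 19.4 in Control. The counts of cells with both are too low to show whether the members prefer or avoid each other's cells.

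In HFpEF-FoxO1-sh over HFpEF-scr, Foxo1 was lower in blood vessel endothelium and higher in fibroblasts and B cells. Endothelial cells had 318 Foxo1 UMIs from 532 cells in HFpEF-FoxO1-sh and 551 UMIs from 649 cells in HFpEF-scr, a ratio of CPM of 0.789 (0.685 to 0.908). In the endothelium of that comparison 20.8% of genes had an interval that left out 1. Fibroblasts gave 1.08 (1.03 to 1.13), where 39.7% of genes had such an interval. B cells gave 1.53 (1.08 to 2.22) from 244 UMIs in HFpEF-FoxO1-sh and 37 in HFpEF-scr, against 9.19% of genes. Endocardial cells had 0.879 (0.753 to 1.03) and lymphatic endothelial cells 0.983 (0.838 to 1.15), so the lower endothelial value was not matched by an interval below 1 in the other lining cells.

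The endothelial difference held in direction under each alternative that was run but varied in size. It was 0.601 (0.368 to 0.961) after thinning to 1000 UMIs per cell, 0.694 among cells with at most 10% mitochondrial UMIs and 0.895 (0.802 to 0.998) with a limit of 50%. Endothelial cells fell into 2 clusters. In the one led by Ly6c1 and then Fabp4, Foxo1 had 57.6 CPM in 218 cells of HFpEF-FoxO1-sh and 84.4 CPM in 246 cells of HFpEF-scr, a ratio of 0.683 (0.550 to 0.846). In the one led by Fabp4 and then Ly6c1, it had 69.5 CPM in 314 cells of HFpEF-FoxO1-sh and 78.2 CPM in 403 cells of HFpEF-scr, a ratio of 0.888 (0.735 to 1.07), whose interval includes 1. The cluster led by Ly6c1 had a median doublet score of 0.198 and a median depth 1.59 times the median of its libraries. For the cluster led by Fabp4 these values were 0.0805 and 1.29. The part of doublets left among the kept cells in the Foxo1 difference was not tested. RNA of cardiomyocytes moved with this contrast. The 11 cardiomyocyte transcripts on a list of such genes summed to 502 CPM in endothelial cells of HFpEF-FoxO1-sh, 274 in HFpEF-scr and 241 in Control, and their part in the Foxo1 difference was not tested.

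The B cell value rested on the mitochondrial limit. At 20% there were 704 B cells in HFpEF-FoxO1-sh, 128 in HFpEF-scr and 102 in Control. With a limit of 50% there were 1045 in HFpEF-FoxO1-sh, 1255 in HFpEF-scr and 1120 in Control. Foxo1 then had 111 CPM in HFpEF-FoxO1-sh, 102 in HFpEF-scr and 106 in Control. The B cells of HFpEF-FoxO1-sh over those of HFpEF-scr then gave 1.09 (0.937 to 1.28). Thinned to 1000 UMIs per cell at the limit of 20%, the ratio was 3.03 (1.34 to 8.45), from 100 Foxo1 UMIs in HFpEF-FoxO1-sh and 6 in HFpEF-scr.

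Within fibroblasts the Foxo1 difference was not uniform. The largest cluster, led by Smoc2 and Htra3, had 61.7 CPM in HFpEF-FoxO1-sh, 48.5 in HFpEF-scr and 58.6 in Control, and HFpEF-FoxO1-sh over HFpEF-scr came to 1.27 (1.16 to 1.4). The cluster led by Wif1 and Prg4 had 59.4 CPM in HFpEF-FoxO1-sh, 70.9 in HFpEF-scr and 61.8 in Control, with a ratio of 0.838 (0.721 to 0.973). Foxo3 moved the same way in the Wif1 cluster, with 41.5 CPM in HFpEF-FoxO1-sh, 52.2 in HFpEF-scr and 40.5 in Control, and a ratio of 0.794 (0.664 to 0.948). The cluster led by Pi16 and Mfap5 had the highest Foxo1 level of the clusters with over 500 fibroblasts in each library, with 76.7 CPM in HFpEF-FoxO1-sh, 73.8 in HFpEF-scr and 80.3 in Control.

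Mitochondrial share moved with the fibroblast contrast as well. In fibroblasts with 5 to 10% mitochondrial UMIs, Foxo1 in HFpEF-FoxO1-sh over HFpEF-scr came to 1.07 (0.996 to 1.15), and in those with 10 to 15% it gave 1.04 (0.962 to 1.12). With 15 to 20% it was 0.898 (0.724 to 1.11). No fibroblast bin had an interval above 1 in that comparison, and each bin gave a ratio below the pooled 1.08. Each bin holds fewer UMIs than the pooled class, which widens its interval. With the mitochondrial limit at 50%, the pooled fibroblasts gave 1.10 (1.06 to 1.15). The part of mitochondrial share in the fibroblast Foxo1 difference was not tested.

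**Figure D3:**
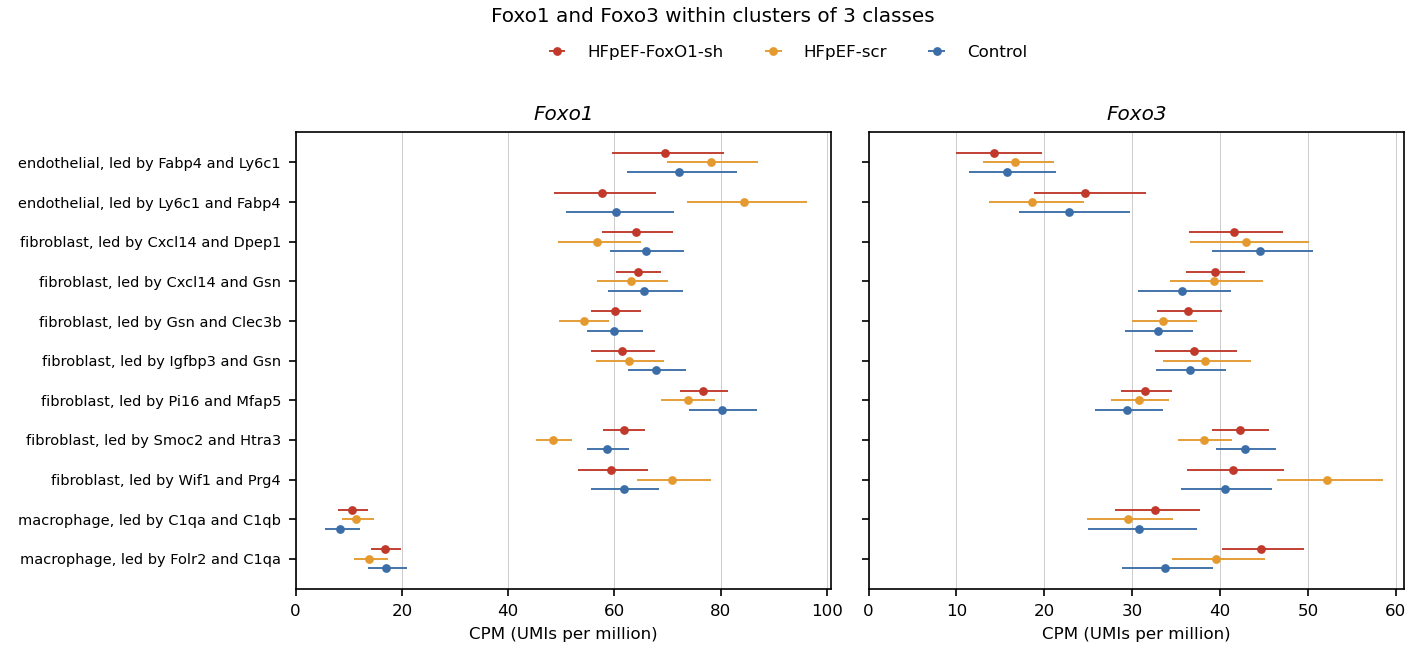
Foxo1 and Foxo3 levels (CPM) in single clusters of fibroblasts, endothelial cells and macrophages, with 1 point per library and exact Poisson 95% intervals. In the fibroblast cluster led by Smoc2 and Htra3 the HFpEF-scr point for Foxo1, 48.5 CPM, is lowest, and in the one led by Wif1 and Prg4 it is highest, at 70.9 CPM.

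In HFpEF-scr over Control, Foxo1 was higher in endothelial and endocardial cells and lower in fibroblasts. Endothelial cells gave a ratio of 1.21 (1.05 to 1.39), where 18.8% of genes had an interval that left out 1. Haemoglobin RNA moved with it: the 5 erythrocyte transcripts summed to 309 CPM in endothelial cells of HFpEF-scr and 809 in Control, and their part was not tested. Endocardial cells gave 1.28 (1.10 to 1.48) from 343 UMIs in HFpEF-scr and 414 in Control, against 15% of genes. For fibroblasts it was 0.922 (0.881 to 0.966), against 36.5% of genes. The endothelial value was 1.06 at a mitochondrial limit of 10%, and 1.12 (0.977 to 1.29) when each cell was given its class singly. The endocardial value was 1.56 at the limit of 10%. The erythrocyte transcripts summed to 190 CPM in endocardial cells of HFpEF-scr and 288 in Control.

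Foxo4 differed in a few classes on small counts. In lymphatic endothelial cells it had 11.4 CPM (27 UMIs) in HFpEF-FoxO1-sh, 20.2 CPM (43 UMIs) in HFpEF-scr and 11.3 CPM (28 UMIs) in Control. The ratio was 0.565 (0.336 to 0.935) in HFpEF-FoxO1-sh over HFpEF-scr, where 12.7% of genes had an interval that left out 1, and 1.79 (1.08 to 2.98) in HFpEF-scr over Control, where 11.4% did. Macrophage Foxo4 gave 1.37 (1.01 to 1.88) in HFpEF-FoxO1-sh over HFpEF-scr, against 21.5% of genes, and endocardial Foxo4 gave 1.69 (1.01 to 2.84) in HFpEF-scr over Control, against 15% of genes. With the mitochondrial limit at 50%, 3 of these 4 Foxo4 intervals included 1. HFpEF-FoxO1-sh over HFpEF-scr then gave 0.631 (0.382 to 1.03) in lymphatic endothelial cells and 1.19 (0.892 to 1.59) in macrophages, and HFpEF-scr over Control gave 1.38 (0.864 to 2.19) in endocardial cells. At the limit of 20% Foxo3 had 1 such class, Schwann cells, with 2.46 (1.06 to 6.37) in HFpEF-scr over Control from 23 UMIs in HFpEF-scr and 8 in Control, against 7.19% of genes. Other intervals left out 1 only at the limit of 50%. HFpEF-FoxO1-sh over HFpEF-scr then gave 1.16 (1.02 to 1.32) for macrophage Foxo3 and 1.29 (1.03 to 1.62) for smooth muscle Foxo1. HFpEF-scr over Control then gave 1.58 (1.08 to 2.34) for B cell Foxo3. In all, at the limit of 20%, 5 of 37 ratios of a member in a class had an interval that left out 1 in HFpEF-FoxO1-sh over HFpEF-scr (3 above 1 and 2 below). In HFpEF-scr over Control 6 of 37 did (5 above 1 and 1 below). Over all genes the share with such an interval ran, by class, from 9.05 to 39.7% in HFpEF-FoxO1-sh over HFpEF-scr and from 7.19 to 36.5% in HFpEF-scr over Control, and the counts of members lay within these shares. The shares over all genes cover only genes with at least 20 UMIs over both libraries. The member ratios had no such minimum, so the comparison is a rough one.

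Few genes that act on FoxO proteins differed. The list of 52 regulators holds receptors and kinases of the insulin cascade, 14-3-3 proteins, acetylases, deacetylases and ubiquitin ligases. A gene was called when its ratio was at least 1.5 either way with an interval leaving out 1. In fibroblasts 0 of 52 regulators were called in either comparison, where 5.61% of all genes were called in HFpEF-FoxO1-sh over HFpEF-scr and 4.13% in HFpEF-scr over Control. In endothelial cells 1 of 52 was called in each, against 6.85% of genes in HFpEF-FoxO1-sh over HFpEF-scr and 5.28% in HFpEF-scr over Control. Irs2, an insulin receptor substrate that is itself a FoxO target and carries the insulin response element shown above, had 9.60 CPM in HFpEF-FoxO1-sh and 4.68 in HFpEF-scr, a ratio of 2.05 (1.29 to 3.32). Sgk1, a kinase that phosphorylates FoxO proteins, had 378 CPM in HFpEF-scr and 237 in Control, a ratio of 1.60 (1.49 to 1.71).

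Of the 93 listed targets, 85 passed the minimum of 20 UMIs in fibroblasts, and in HFpEF-FoxO1-sh over HFpEF-scr 1 was called higher and 7 lower, where 5.61% of all genes were called, 1.53% higher and 4.07% lower. The 5 erythrocyte transcripts summed to 103 CPM in fibroblasts of HFpEF-FoxO1-sh and 163 in HFpEF-scr, with 3 of 5 called lower, and their part was not tested. The targets' median log2 ratio was 0.04, beside 0.03 over all genes. The gene that was higher was Angptl4, an inhibitor of lipoprotein lipase, with 118 CPM in HFpEF-FoxO1-sh and 69.5 in HFpEF-scr, a ratio of 1.69 (1.63 to 1.76). Lower genes included lymphocyte receptors. Il7r had 0.123 CPM in HFpEF-FoxO1-sh and 1.73 in HFpEF-scr, Ccr7 had 0.343 CPM in HFpEF-FoxO1-sh and 2.17 in HFpEF-scr, and Cxcr4 had 2.90 CPM in HFpEF-FoxO1-sh and 7.51 in HFpEF-scr. These levels in fibroblasts were low in both libraries. The fibroblast cluster led by Gsn and Pi16, whose next best class by markers was B cell, was uneven between libraries. It held 13 cells in HFpEF-FoxO1-sh, 83 in HFpEF-scr and 74 in Control. The part of lymphocyte RNA in the values of these receptors was not tested. In HFpEF-scr over Control, 2 of 85 were higher and 2 lower in fibroblasts, against 4.13% of genes, with a median of 0.03 beside -0.01 over all genes. Angptl4 again was higher, with 69.5 CPM in HFpEF-scr and 23.9 in Control, and Klf15, a regulator of metabolism, was lower, with 11.9 CPM in HFpEF-scr and 21.1 in Control.

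Endothelial cells had 82 targets measured in HFpEF-FoxO1-sh over HFpEF-scr, 8 called, 5 higher and 3 lower, against 6.85% of genes, with a median log2 ratio of 0.00 beside 0.03 over all genes. Besides Irs2, the higher ones included the metallothioneins Mt1, with 117 CPM in HFpEF-FoxO1-sh and 59.1 in HFpEF-scr, and Mt2, with 36.8 CPM in HFpEF-FoxO1-sh and 13.2 in HFpEF-scr. Pdgfrb, a receptor of mural cells, was higher as well, with 144 CPM in HFpEF-FoxO1-sh and 88.2 in HFpEF-scr. Pdgfrb was also a marker used to name pericytes, which numbered 300 in HFpEF-FoxO1-sh and 40 in HFpEF-scr. The part of pericyte RNA in this endothelial value was not tested. The lower ones included Vash1, an inhibitor of vessel growth, with 4.6 CPM in HFpEF-FoxO1-sh and 9.51 in HFpEF-scr. In HFpEF-scr over Control 84 were measured, 6 higher and 3 lower, against 5.28% of genes. Cd36, a fatty acid transporter, had 4405 CPM in HFpEF-scr and 2527 in Control, and Angptl4 had 45.5 CPM in HFpEF-scr and 12.3 in Control. Fbxo32 had 25.2 CPM in HFpEF-scr and 15.1 in Control.

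Endocardial cells had 77 targets measured, 5 higher and 3 lower in HFpEF-FoxO1-sh over HFpEF-scr, where 5.03% of all genes were called, and 5 higher and 1 lower in HFpEF-scr over Control, where 5.49% were. Their erythrocyte transcripts summed to 68.9 CPM in HFpEF-FoxO1-sh, 190 in HFpEF-scr and 288 in Control, with 3 of 4 measured called lower in HFpEF-FoxO1-sh over HFpEF-scr and 2 of 4 in HFpEF-scr over Control. Angpt2, an angiopoietin that loosens vessels and a known Foxo1 target, had 21.5 CPM in HFpEF-FoxO1-sh, 39.7 in HFpEF-scr and 21.4 in Control. Bbc3, also a listed target, went the other way, with 17.7 CPM in HFpEF-FoxO1-sh, 8.54 in HFpEF-scr and 10.8 in Control. Bbc3 was 1 of the 5 endocardial targets called higher in the first of these comparisons, beside 3 called lower. Klf2, a shear-stress factor, had 1004 CPM in HFpEF-scr and 601 in Control. Macrophages had 80 targets measured, 1 higher and 3 lower in HFpEF-FoxO1-sh over HFpEF-scr, against 4.88% of genes, and 6 higher and 1 lower in HFpEF-scr over Control, against 4.38%. Cardiomyocyte transcripts in macrophages summed to 98.95 CPM in HFpEF-FoxO1-sh, 55.5 in HFpEF-scr and 60.8 in Control, with 7 of 10 measured called higher in HFpEF-FoxO1-sh over HFpEF-scr. Erythrocyte transcripts there summed to 167 CPM in HFpEF-FoxO1-sh, 250 in HFpEF-scr and 156 in Control, and the part of either was not tested. Macrophage Cxcr4 had 94.5 CPM in HFpEF-FoxO1-sh, 146 in HFpEF-scr and 84.1 in Control. Smooth muscle cells had 76 measured in HFpEF-FoxO1-sh over HFpEF-scr, 2 higher and 4 lower, against 5.55% of genes, and 78 in HFpEF-scr over Control, 6 higher and 5 lower, against 5.05%. Haemoglobin RNA moved with the smooth muscle contrast, where the 5 erythrocyte transcripts summed to 262 CPM in HFpEF-FoxO1-sh, 3180 in HFpEF-scr and 2998 in Control. Of the cardiomyocyte transcripts measured in smooth muscle cells, 5 of 9 were called lower in HFpEF-FoxO1-sh over HFpEF-scr, and 5 of 10 higher and 1 lower in HFpEF-scr over Control. The part of either list was not tested.

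**Figure D4:**
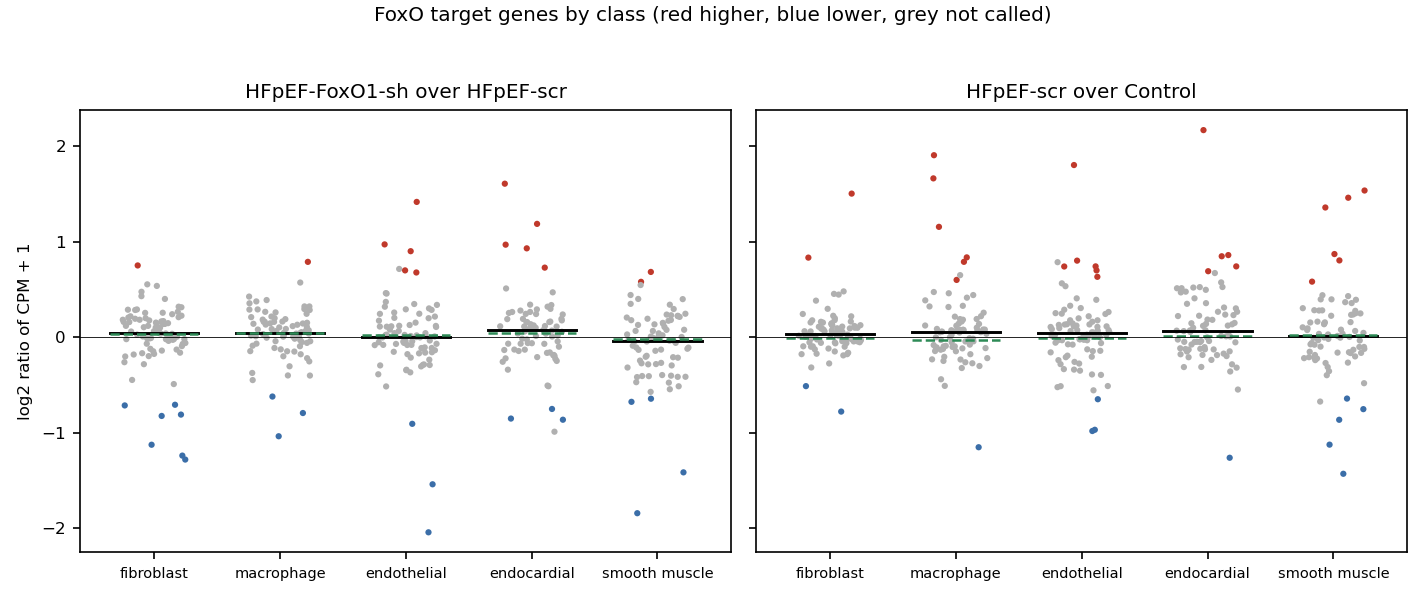
Log2 ratio of CPM for the listed FoxO targets by cell class in both comparisons, with 1 point per gene and the median of all genes marked. The median of the targets in fibroblasts is 0.04 in HFpEF-FoxO1-sh over HFpEF-scr, beside 0.03 over all genes.

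Target genes whose promoters hold GTAAACA had levels as different as the classes. Txnip, which binds thioredoxin and limits glucose uptake, had 771 CPM in fibroblasts of HFpEF-FoxO1-sh, 526 in HFpEF-scr and 481 in Control. For Txnip, HFpEF-FoxO1-sh over HFpEF-scr came to 1.47 (1.45 to 1.49) in fibroblasts, just short of a call, 1.22 in endothelial cells and 1.30 in macrophages. Btg1, an inhibitor of cell proliferation, had its highest mean in B cells, 2477 CPM, and its lowest in fibroblasts. Bcl2l11, which encodes the death protein Bim, had 11.4 CPM in fibroblasts of HFpEF-FoxO1-sh, 9.58 in HFpEF-scr and 9.29 in Control. Mxi1, an antagonist of Myc, had 49.6 CPM in fibroblasts of HFpEF-FoxO1-sh, 51.0 in HFpEF-scr and 46.7 in Control. The promoters of Bbc3, Selenop and Trim63 held GTAAACA too. In fibroblasts of HFpEF-FoxO1-sh over HFpEF-scr, Bbc3 gave 0.985 (0.890 to 1.09) and Selenop 1.03 (1.02 to 1.04). Trim63 gave 0.687 (0.474 to 0.993) there, at 0.782 CPM in HFpEF-FoxO1-sh and 1.14 in HFpEF-scr. Fibroblasts did not stand for the other classes in that comparison. Bbc3 gave 2.07 (1.24 to 3.55) in endocardial cells and 1.87 (1.11 to 3.07) in monocytes, and its interval included 1 in the other compared classes. Selenop ran from 0.720 (0.647 to 0.800) in smooth muscle cells to 1.26 (1.22 to 1.31) in endocardial cells.

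Over the mean levels of the 11 classes, the genes most like Foxo1 among 12693 were Tia1 (Pearson r of log2 levels 0.96), Ubxn7 (0.95), Hbs1l (0.94), Matr3 (0.94) and Ankrd12 (0.94). Foxo3 had r = -0.06 with Foxo1, and Foxo4 had 0.67. The genes most like Foxo3 were Rnaseh2c (0.83), Pcgf1 (0.83), Leng9 (0.82), Arrdc3 (0.81) and Gm47123 (0.81). For Foxo4 they were Taf8 (0.95), Nudcd3 (0.95), Rb1cc1 (0.94), Hars2 (0.94) and Tfb2m (0.94). The classes share their libraries and, in part, free RNA, and these values are a description over 11 points.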

How the data were processed

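The submitters deposited 1 matrix of raw UMI counts per library, made with Cell Ranger 6.1.2 on mm10 per the submitters' processing notes. Barcodes entered with 500 UMIs and 300 genes or more and a mitochondrial share up to 20%. Scrublet, run per library through scanpy 1.11.5, marked 3.09% of cells in HFpEF-FoxO1-sh, 2.29% in HFpEF-scr and 1.41% in Control as doublets, which were removed. Cells were clustered (2000 variable genes, 30 components, Leiden resolution 1.0) and named from marker genes, with at least 3 detected markers per name. Names are therefore rebuilt, not the authors'. UMIs were summed per class and library. Levels carry exact Poisson intervals, shares Clopper-Pearson intervals and ratios exact conditional binomial intervals, all at 95%. Only the ratio intervals and the call rule were checked on simulated counts, drawn around the fibroblast sums with counting error alone. The 4 members, the markers and the lists (regulators, targets, other forkhead factors, cardiomyocyte and erythrocyte transcripts) were chosen with earlier results of these data known. From each list, up to 4 genes per class with the largest absolute log2 ratio could be named. Those with a promoter element were named for it, and clusters, mesothelial cells and neutrophils were singled out after their values were seen. Whether the 4 pooled samples of a library are separate animals is not given in the sources used here. A planned comparison of the FoxO proteins was not run.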

Additional observations from a re-analysis of the deposited data

Results flagged for a closer look

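Foxo1 went opposite ways in different cell classes of the same comparison. In HFpEF-FoxO1-sh over HFpEF-scr its ratio was 0.789 in endothelial cells, 1.08 in fibroblasts and 1.53 in B cells. In HFpEF-scr over Control it was 1.21 in endothelial cells, 1.28 in endocardial cells and 0.922 in fibroblasts. Foxo4 likewise had 0.565 in lymphatic endothelial cells and 1.37 in macrophages in HFpEF-FoxO1-sh over HFpEF-scr. With a mitochondrial limit of 50% these Foxo4 intervals included 1 (0.382 to 1.03 in lymphatic endothelial cells and 0.892 to 1.59 in macrophages), and so did that of B cell Foxo1 (0.937 to 1.28). At the limit of 20% each of these intervals left out 1, but each group is 1 library, and the differences between classes were not tested. The comparisons share the HFpEF-scr library, so a high or low value there moves both ratios in opposite directions.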

How the results depend on the processing

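No paired analysis was possible because each group has 1 library, and no library could be left out. Over all kept cells, Foxo1 in HFpEF-FoxO1-sh over HFpEF-scr came to 1.02 without mitochondrial, haemoglobin and ribosomal protein genes. Foxo3 had 1.11 at a mitochondrial limit of 10%. Thinned to 1000 UMIs by 1 random draw, which leaves few UMIs per cell, that comparison gave 1.19 for Foxo1, 1.09 for Foxo3 and 0.827 for Foxo4. After that draw HFpEF-scr over Control gave 0.805 for Foxo1 and 1.32 for Foxo4. The mean of the CPM per cell also weighs cells alike but keeps all UMIs. With it, HFpEF-FoxO1-sh over HFpEF-scr gave 1.08 for Foxo1, 1.02 for Foxo3 and 0.975 for Foxo4. HFpEF-scr over Control then gave 0.904 for Foxo1 and 1.08 for Foxo4. Of the values by class, thinning moved 31 and left 27 within their reported interval or spread, and the limit of 10% moved 12 and left 42. The mean of the CPM per cell left all 59 values by class, and all 8 over all kept cells, within theirs. B cell Foxo1 in HFpEF-FoxO1-sh over HFpEF-scr reached 3.03 after thinning. With the lower of the call ratios tried, called targets in HFpEF-FoxO1-sh over HFpEF-scr numbered 18 in fibroblasts, 13 in macrophages and 14 in endothelial cells, and called regulators 3 in macrophages and 4 in endothelial cells. Targets in HFpEF-scr over Control then numbered 8 in fibroblasts, 16 in macrophages and 18 in endothelial cells, and regulators 2 in macrophages and 4 in endothelial cells. With a minimum of 100 UMIs, called targets in HFpEF-FoxO1-sh over HFpEF-scr numbered 2 in macrophages and 4 in endothelial cells, where 0 regulators were called, and in HFpEF-scr over Control 3 in macrophages. The shares of all genes called at these other settings are not given here. These counts therefore do not show whether the lists differed from other genes, and the cause was not tested. Alternatives chosen after seeing the data turned fibroblast Foxo1 in HFpEF-FoxO1-sh over HFpEF-scr to 0.730 in the cluster led by Gsn and Inmt, 0.939 in that led by Gsn and Pi16, 0.979 in that led by Igfbp3 and Gsn, 0.838 in that led by Wif1 and Prg4, and 0.778 and 0.898 in cells with 0 to 5% and 15 to 20% mitochondrial UMIs. In HFpEF-scr over Control they turned it to 1.15 in the Wif1 cluster and 2.33 in cells with 0 to 5%, a bin of 28 cells in HFpEF-scr and 17 in Control. The cluster led by Gsn and Inmt held only 5 cells in HFpEF-FoxO1-sh and 39 in HFpEF-scr, with a median doublet score of 0.387. That led by Gsn and Pi16 held 13 cells in HFpEF-FoxO1-sh and 83 in HFpEF-scr, with a median doublet score of 0.238.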

Other observations

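Pericytes, the mural cells of capillaries, were too few in HFpEF-scr to compare at the mitochondrial limit of 20%. They numbered 300 in HFpEF-FoxO1-sh, 40 in HFpEF-scr and 110 in Control at that limit. At a limit of 50% they numbered 538 in HFpEF-FoxO1-sh, 240 in HFpEF-scr and 608 in Control, and Foxo1 had 31.1 CPM in HFpEF-FoxO1-sh (interval 23.0 to 41.1), 19.2 in HFpEF-scr (10.5 to 32.2) and 18.2 in Control (12.8 to 25.1). Among other forkhead genes, Foxc2, a factor of lymphatic and valve development, had 69.9 CPM in endocardial cells of HFpEF-FoxO1-sh, 92.8 in HFpEF-scr and 59 in Control, with HFpEF-scr highest as for endocardial Foxo1. Foxm1, a factor of dividing cells, had 1.67 CPM in macrophages of HFpEF-FoxO1-sh and 5.02 in HFpEF-scr, a ratio of 0.33 (0.19 to 0.55). A cluster led by Cilp and Cst6, left unnamed by the marker rule, had 54.1 CPM of Foxo1 in HFpEF-FoxO1-sh, 49.2 in HFpEF-scr and 52.8 in Control.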
